A study of Mus musculus with 4 samples.

Results

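A day 6 reprogramming culture labelled Sumo2 knockdown was compared with the Firefly knockdown culture sampled at the same day, gene by gene. Of 22180 genes with a probe set of their own, the 11740 that stood at or above the middle of the array on 1 or both day 6 arrays were compared; they are called measured here. Where a gene had several probe sets, the brightest over the 4 arrays stood for it. Each culture was hybridised to 1 array, so a difference between them has no replicate check, and no p-value can be given.

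The series holds 4 mouse arrays from a study whose title names Sumo2, a small ubiquitin-like modifier joined to other proteins, as a roadblock to reprogramming. Both day 6 samples are reprogrammable embryonic fibroblasts (repMEFs) in bulk culture, strain Black6-129X1/SvJ, pooled from male and female, grown in stem cell medium with serum and given ascorbic acid and doxycycline, counted as day 6 from the addition of doxycycline. The Firefly culture received a knockdown against an insect luciferase, a gene that mouse cells lack, and served as the control; the other carries the label Sumo2 knockdown. The remaining arrays hold lines of induced pluripotent stem cells (iPSC) that came from a Sumo2 knockdown; their labels read 38 h and 10 day. No label says how separate the cultures were, and none gives the age of the embryos, a batch or the knockdown reagent.

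Reprogramming turns fibroblasts into cells resembling embryonic stem cells. Cells on that path divide quickly with a short gap phase, make much ribosome and nucleotide, and lose the secretory, contractile and inflammatory programmes of connective tissue. SUMO proteins are attached to many chromatin factors, among them repressors of silent genes.

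Values are log2 expression, in which a step of 1 is 2-fold. Where 4 values follow a gene, they are its log2 values on the Firefly, Sumo2-labelled, 38 h and 10 day arrays, in that order. The measuring floor is the median of the probe sets with 1 gene symbol, 6.64 on the Firefly array and 6.67 on the Sumo2-labelled array. Where a value lay below the floor, the fold is given as "at least", counted from the floor. Levels are not compared between genes, because probe sets differ in brightness.

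The targeted transcript came first. Sumo2 read 10.65, 10.56, 11.40 and 11.07, so the culture labelled Sumo2 knockdown held 93.8% of the Firefly level. The 4 probe sets shared between Sumo2 and other genes stood at 79.4% to 84.0%. A knockdown is thus not visible in the transcript, and every direction below rests on the label alone; the sample is called the Sumo2-labelled culture. Across all measured genes the median difference, Sumo2-labelled minus Firefly, was 0.02 with an SD across genes of 0.33. Higher by any amount were 53.7% of genes and lower 46.3%. At 1.5-fold, 480 genes (4.09%) were higher and 330 (2.81%) lower, and at 2-fold 111 (0.945%) were higher and 27 (0.23%) lower. Counted from the floor, which draws dim genes together, 54.2% were higher and 45.8% lower, 3.59% and 2.32% at 1.5-fold and 0.792% and 0.179% at 2-fold. These shares are the background against which each gene group is set. Gene groups come from 66 lists of pathways and families with 1873 genes, of which 1723 were found on the array and 1379 were measured.

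Markers of known cell types stood as follows beside all that comes after. Of 24 pluripotency markers 18 were measured and 17 of them were higher, with a median level of 7.47 in the Firefly culture, 8.90 in the Sumo2-labelled culture, 10.99 in the 38 h line and 11.01 in the 10 day line. Their median difference was 0.80, and 0.69 counted from the floor. Tdgf1, Dppa2, Esrrb and Lin28a passed the floor only on the Sumo2-labelled array, so they could only read higher. Pou5f1 stood at 0.02, and Epcam is in the epithelial list as well. Of 16 epithelial markers 12 were measured and 11 of them were higher, with a median level of 7.70 against 8.32. Their median difference was 1.23, and 1.06 counted from the floor. Dsp, Esrp1 and Ocln likewise passed only on the Sumo2-labelled array. Of 23 fibroblast markers 19 were measured, 0 were higher and 19 lower, with a median level of 9.85 and 9.37 in the day 6 cultures and 8.85 and 8.69 in the iPSC lines. Their median difference was -0.48. Median levels need not lie apart by the median difference, because the middle gene can change between arrays. All 3 lists move with the groups described below, and their part in each result was not tested. In a bulk culture, fewer cells of a type and less RNA per cell cannot be told apart.

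DNA replication genes were higher in the Sumo2-labelled culture almost throughout. Of 37 measured genes of origin licensing and the replication fork, 36 were higher, 15 of them at least 1.5-fold, and 0 were 1.5-fold lower; their median difference was 0.50 on the log2 scale. Tipin, which protects stalled forks, read 7.59, 8.55, 9.75 and 9.74, or 1.94-fold higher at day 6. Mcm10, which helps to start the replication machine, read 8.06, 8.94, 9.83 and 9.73 (1.83-fold). Orc1 and Orc2, subunits of the complex that marks origins, were 1.73-fold and 1.75-fold higher, and the helicase subunit Mcm3 1.69-fold. For each of these, the Sumo2-labelled array read above the Firefly array and below both iPSC arrays. Gmnn, which encodes geminin, a brake on licensing, was the exception and read 7.02 against 6.56, at least 1.28-fold lower.

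Factors of the E2F family switch on many replication genes, and promoter letters were therefore read for this group. The E2F motif was searched as TTTGGCGC or TTTCGCGC on both strands, in windows from 250 bases before to 50 bases after each start in RefSeq (GRCm38.p6). It was found in 10 of the 29 replication genes with a promoter in the table (34.5%), in 4 of 19 cyclin and CDK genes (21.1%), in 172 of the 9269 measured genes with a promoter (1.86%) and in 0.929% of all promoters. Among genes at least 1.5-fold higher it was in 14 of 377 (3.71%). It was in 0 of 26 promoters of purine and pyrimidine synthesis and 0 of 15 of homologous recombination. For spindle genes it was in 1 of 33, and for cohesin and condensin in 2 of 13. The 250 bases before the start are shown for Orc1, for the helicase subunit gene Mcm6 and for the phosphatase gene Cdc25a, with the motif in capitals; in Mcm6 the first capital run holds a pair of overlapping matches. A match is a description of the letters only.
Orc1, chr4:108579204-108579453, plus strand: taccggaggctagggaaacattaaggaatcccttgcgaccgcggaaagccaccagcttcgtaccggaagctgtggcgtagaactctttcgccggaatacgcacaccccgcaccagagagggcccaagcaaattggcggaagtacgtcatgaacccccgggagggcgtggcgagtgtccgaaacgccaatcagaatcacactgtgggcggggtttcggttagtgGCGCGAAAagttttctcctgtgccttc
Mcm6, chr1:128359706-128359955, minus strand: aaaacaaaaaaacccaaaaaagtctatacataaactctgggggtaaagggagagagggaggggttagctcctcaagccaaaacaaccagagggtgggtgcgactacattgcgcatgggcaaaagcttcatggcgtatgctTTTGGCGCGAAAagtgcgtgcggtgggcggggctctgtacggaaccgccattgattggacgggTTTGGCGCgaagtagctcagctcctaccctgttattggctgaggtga
Cdc25a, chr9:109875329-109875578, plus strand: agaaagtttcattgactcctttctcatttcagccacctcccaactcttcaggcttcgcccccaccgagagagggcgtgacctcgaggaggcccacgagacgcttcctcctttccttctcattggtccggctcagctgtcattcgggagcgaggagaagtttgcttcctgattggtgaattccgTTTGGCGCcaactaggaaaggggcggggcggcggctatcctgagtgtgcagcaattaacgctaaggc

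Mcm6 read 9.47, 9.85, 11.03 and 11.01 (1.30-fold higher). Orc1, whose motif begins 27 bases before the start, read 6.75, 7.54, 9.08 and 9.13. Cdc25a, whose motif begins 67 bases before it, read 8.40, 9.43, 10.51 and 10.62. Its product removes the inhibitory phosphates from cyclin-dependent kinases, and the gene was 2.04-fold higher at day 6. Mybl2, a transcription factor of the S and G2 phases, read 9.42, 10.60, 12.48 and 12.52 (2.26-fold). A dimmer second probe set of Mybl2 also stood higher, by 0.83. Among all 25 measured cyclins, kinases and E2F factors, 20 were higher but only 3 reached 1.5-fold, the other being Skp2 (1.62-fold), part of a ubiquitin ligase that removes CDK inhibitors. The D cyclins Ccnd1, Ccnd2 and Ccnd3 lay within 0.15 of 0, at -0.15, -0.06 and -0.03.

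Nucleotide supply and the removal of uracil from DNA stood higher too. Ung, the glycosylase that cuts uracil out of DNA, had the largest difference among repair genes; it read 6.63, 8.17, 8.82 and 8.84, at least 2.89-fold higher. Dut, the enzyme that keeps dUTP out of the precursor pool, read 8.01, 9.20, 9.24 and 9.22 (2.28-fold), though its dim second probe set differed by 0.13 only. At both genes the Sumo2-labelled culture was nearer to the iPSC lines than to the Firefly culture. Of 28 purine and pyrimidine genes, 24 were higher and 10 of them at least 1.5-fold, with a median of 0.39. Dut had the largest difference of this list. Of the folate cycle enzymes, Mthfd1 read 10.25, 11.21, 11.47 and 11.33 (1.94-fold), Mthfd2 was 1.77-fold and Shmt1 1.70-fold higher. Cad, which carries out the first steps of pyrimidine synthesis, was 1.74-fold higher. The ribonucleotide reductase genes were divided. Rrm2 was 1.55-fold higher, or 0.34 on the log2 scale by the median over its probe sets. Rrm1 and Rrm2b stood on the other side, at -0.19 and -0.27, with Ctps, a CTP synthase gene, at -0.30.

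Msh6, which takes part in recognising mismatches, read 7.82, 8.93, 10.45 and 10.51 (2.15-fold), and Msh3 was 1.67-fold higher. Of 17 genes of mismatch, base and nucleotide excision repair, 13 were higher and 4 reached 1.5-fold, yet the median was 0.15, with the damage sensor Xpc at -0.35 and the glycosylase Neil1 at -0.44. In homologous recombination and the Fanconi pathway 16 of 19 genes were higher, with a median of 0.30. The helicase gene Blm read 8.09, 9.04, 10.66 and 10.67 (1.93-fold), Bard1 was 1.92-fold higher and its partner Brca1 1.61-fold.

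Mitotic genes followed. Of 38 measured spindle, kinetochore and checkpoint genes, 36 were higher, 9 of them at least 1.5-fold, with a median of 0.42, and all 18 cohesin and condensin genes were higher, with a median of 0.34. Espl1, which encodes separase, the protease that opens cohesin rings, read 8.27, 9.15, 10.23 and 10.10 (1.83-fold), while Pttg1, its inhibitor securin, stood at -0.15. Kif11, the motor that pushes spindle poles apart, read 9.85, 10.61, 11.21 and 11.05 (1.68-fold). Spc25, a kinetochore subunit, was 1.82-fold and the checkpoint gene Bub1b 1.71-fold higher. Esco2, which acetylates cohesin during replication, read 8.06, 9.01, 10.85 and 10.54 (1.93-fold). The cell cycle genes homology region (CHR), searched as TTTGAA on both strands, is a known element of G2 and M phase promoters. It occurred in 21 of 33 spindle gene promoters (63.6%), in 6 of 13 for cohesin and condensin (46.2%) and in 13.7% of all measured genes with a promoter. Among genes at least 1.5-fold higher it was in 19.6%, and among all promoters in 20.2%. It is shown in capitals upstream of Espl1 and Kif11, where it begins 27 and 19 bases before the start.
Espl1, chr15:102296043-102296292, plus strand: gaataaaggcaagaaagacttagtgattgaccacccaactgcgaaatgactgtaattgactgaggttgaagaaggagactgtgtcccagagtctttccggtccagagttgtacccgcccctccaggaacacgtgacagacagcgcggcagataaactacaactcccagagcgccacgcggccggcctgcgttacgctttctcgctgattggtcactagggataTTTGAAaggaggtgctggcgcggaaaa
Kif11, chr19:37376132-37376381, plus strand: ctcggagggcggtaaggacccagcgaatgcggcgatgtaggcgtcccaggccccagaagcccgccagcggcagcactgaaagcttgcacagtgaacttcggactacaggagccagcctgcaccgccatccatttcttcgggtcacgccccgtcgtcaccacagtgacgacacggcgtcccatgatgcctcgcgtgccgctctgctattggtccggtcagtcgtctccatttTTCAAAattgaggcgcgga

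**Figure D1:**
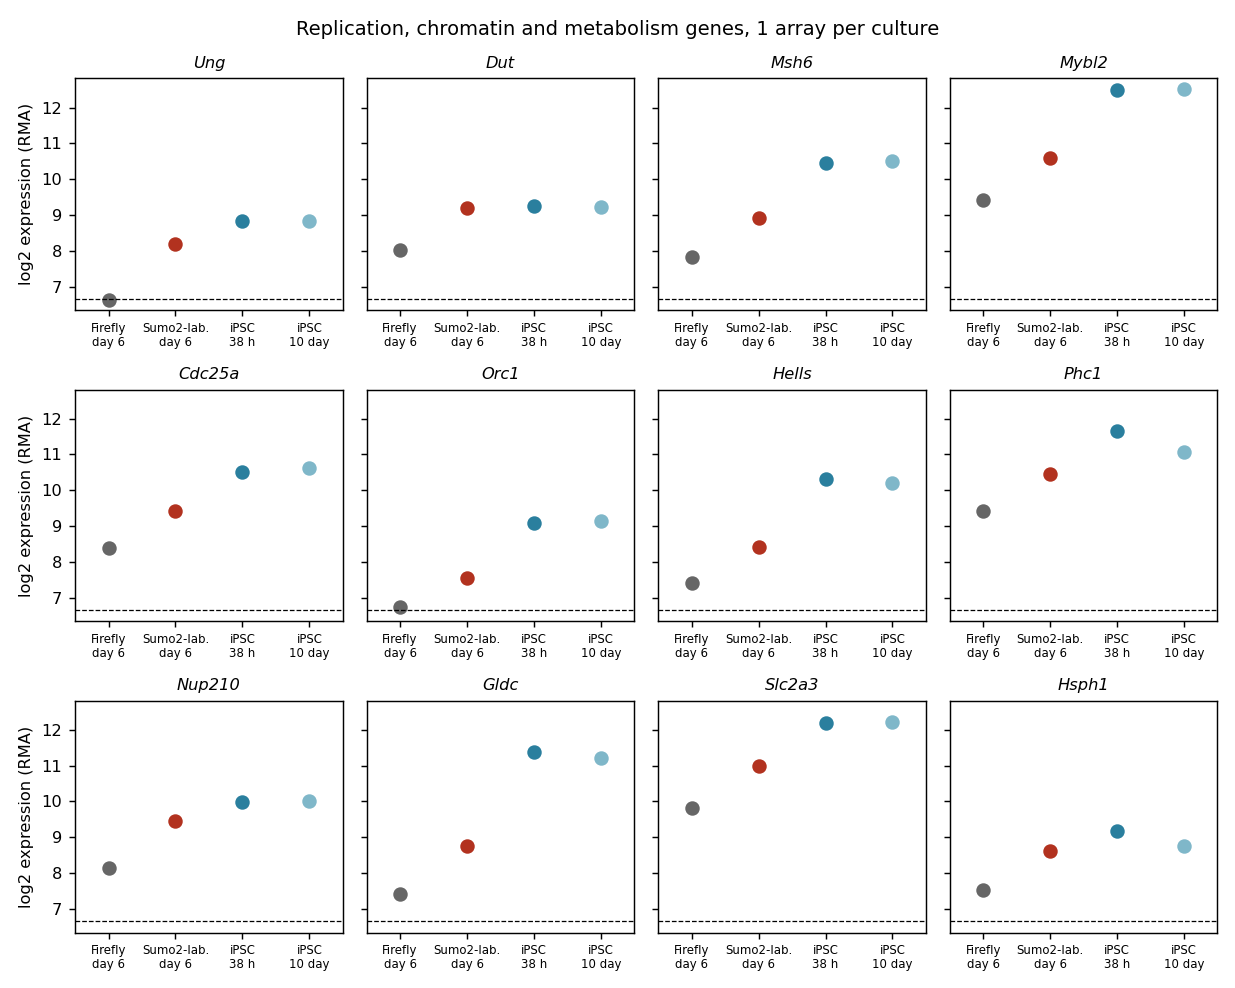
Log2 expression (vertical axis, RMA scale) of 12 genes of replication, repair, chromatin, nuclear pores, metabolism and chaperones; each point is 1 array, and the dashed line is the measuring floor averaged over the 4 arrays. Each gene reads higher in the Sumo2-labelled than in the Firefly culture, and Gldc, for example, goes on from 8.74 to 11.37 and 11.22 in the iPSC lines.

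The machinery of protein synthesis was shifted by small steps in a common direction. All 45 measured genes of the nucleolus and ribosome assembly were higher, with a median of 0.41, but only 7 reached 1.5-fold. The highest was Gar1, a core protein of the particles that modify ribosomal RNA, which read 8.07, 8.91, 9.73 and 9.51 (1.80-fold), followed by the small subunit assembly factor Heatr1 (1.64-fold). The 18 measured cytosolic aminoacyl tRNA synthetases were all higher as deposited, though 16 after cyclic loess scaling, with Lars (1.54-fold) the largest and a median of 0.35. The E-box CACGTG, the motif of Myc proteins, was in 17.5% of the ribosome assembly promoters and in 11.9% of those of measured genes. In the promoters of all genes at least 1.5-fold higher it was in 9.28%.

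Nuclear pore and transport genes were higher in 30 of 30 cases, with a median of 0.41. Nup210, a membrane-anchored nucleoporin, read 8.15, 9.46, 9.98 and 10.01 (2.48-fold). Rcc1, which loads Ran with GTP on chromatin, read 8.98, 9.73, 10.02 and 9.77 (1.68-fold). In the lamina, Lmnb1 was 2.10-fold higher, at 8.69, 9.76, 10.48 and 10.14, against 0.24 on the log2 scale for Lmnb2. Proteasome genes were higher in 25 of 28 cases, with a median of 0.21 and 0 of them at 1.5-fold.

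**Figure D2:**
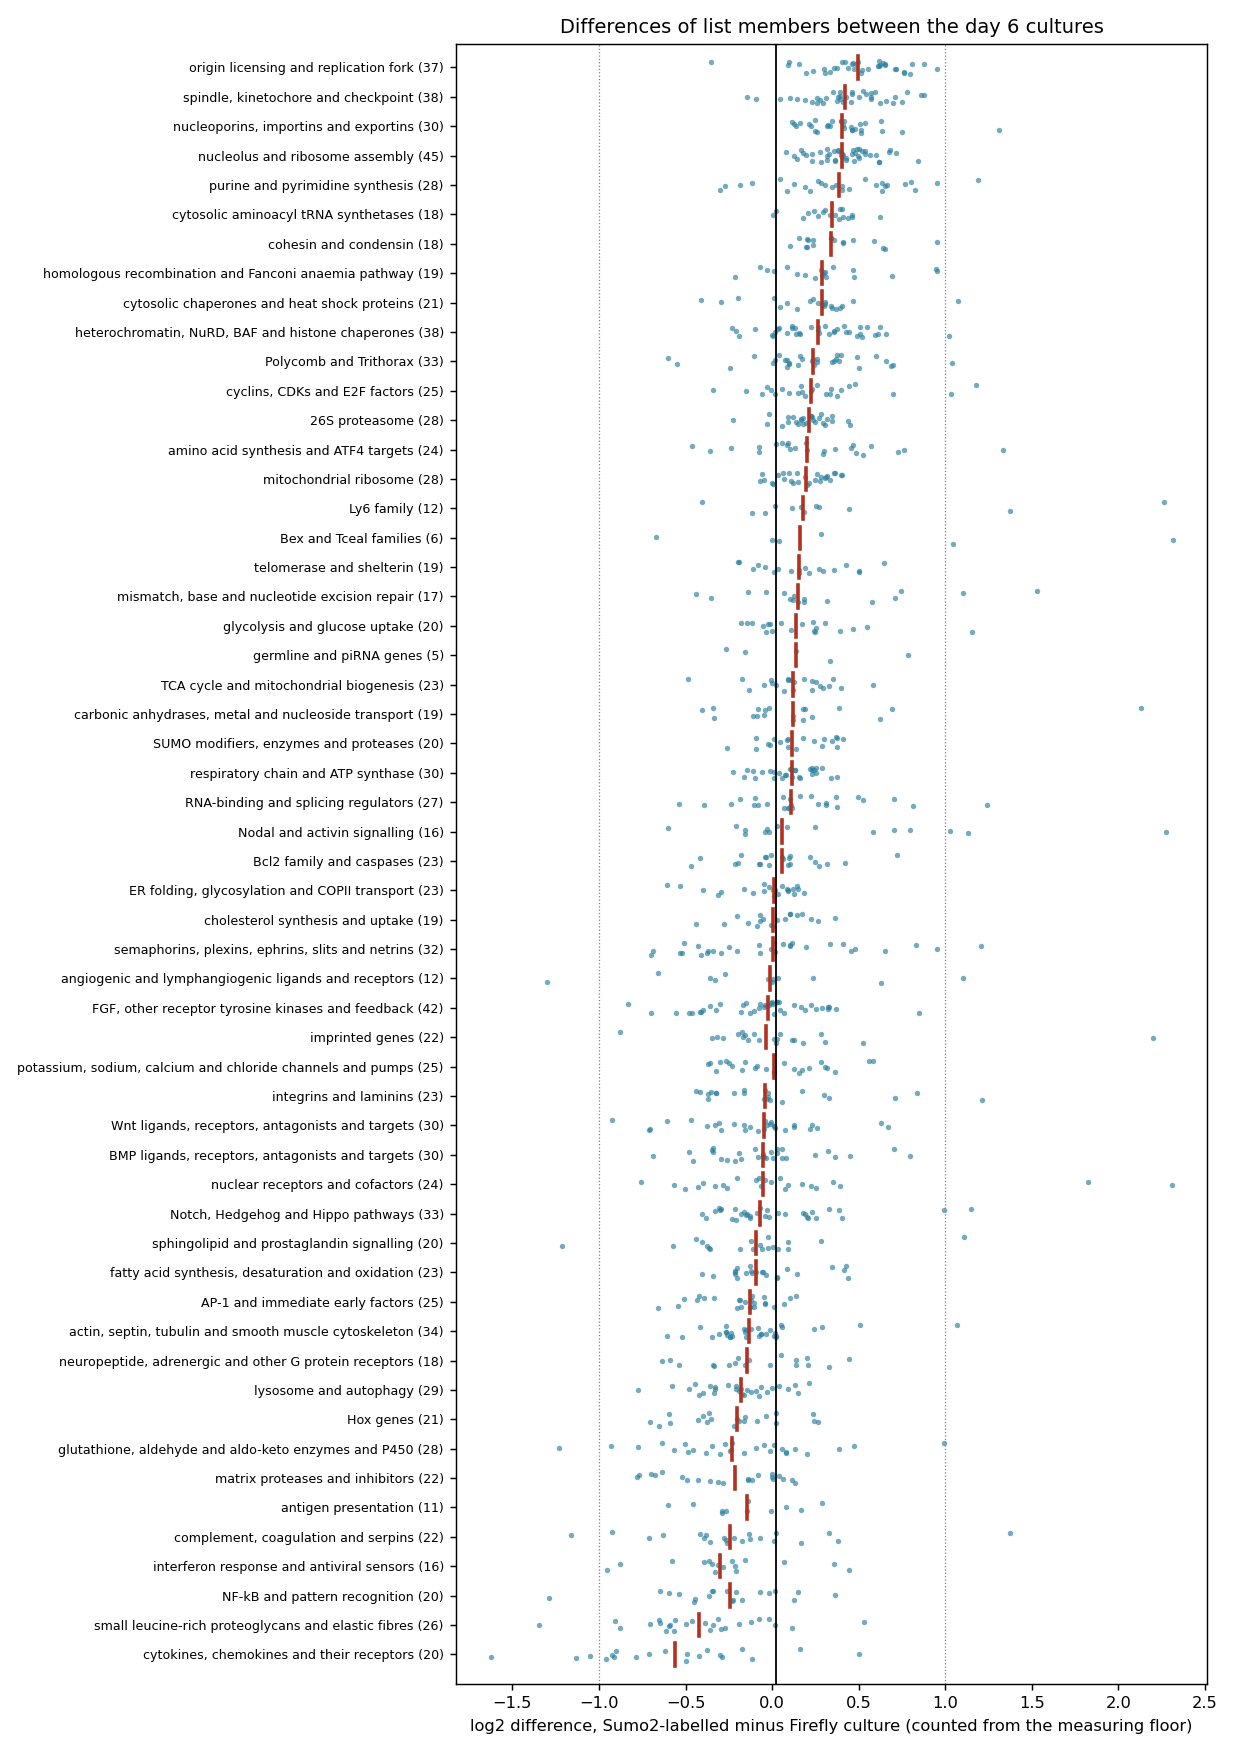
Differences between the day 6 cultures (horizontal axis, log2, Sumo2-labelled minus Firefly, counted from the measuring floor) for every measured gene (points) of 55 pathway and family lists, with the number measured in brackets; red bars are list medians, the black line is the median of all measured genes (0.02) and dotted lines mark 2-fold. Replication genes stand at the top with a median of 0.50 and cytokine genes at the bottom with -0.56.

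Metabolism outside nucleotides showed larger differences at a few genes and small medians. Gldc, which feeds the folate cycle by cleaving glycine, read 7.41, 8.74, 11.37 and 11.22 (2.52-fold), and Cbs, an enzyme of transsulfuration, was 1.65-fold higher. Odc1, the first enzyme of polyamine synthesis, read 9.67, 10.91, 11.32 and 11.14 (2.35-fold). Slc7a3, an importer of basic amino acids, read 10.63, 11.39, 10.79 and 10.85, higher in the Sumo2-labelled culture than on the other 3 arrays. In the list of amino acid synthesis and ATF4 targets, which holds Gldc, Cbs and Slc7a3, 19 of 24 genes were higher, with a median of 0.20. Its stress transcription factors went both ways, with Atf4 at 0.30, Ddit3 at -0.47, Cebpb at -0.36 and Atf5 at -0.24. Of 20 glycolysis genes only Slc2a3, the glucose transporter GLUT3, reached 1.5-fold; it read 9.82, 10.98, 12.19 and 12.23 (2.23-fold), and the list median was 0.14. Among measured genes in their order on chromosome 6, Slc2a3 comes next to the pluripotency genes Gdf3 and Nanog, and all 3 were at least 1.5-fold higher.

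Of 23 measured fatty acid genes 8 were higher and 15 lower, 0 of them at 1.5-fold, with a median of -0.09. The synthesis enzyme genes Fasn, Elovl6, Acly and Acaca stood at 0.44, 0.43, 0.42 and 0.34, and Acadl and Cpt1a of fatty acid oxidation at -0.40 and -0.34. Cholesterol genes were 10 higher and 9 lower, a split that cyclic loess turned to 8 and 11. The respiratory chain (23 of 30 higher, median 0.11), the mitochondrial ribosome (24 of 28, median 0.19) and the citric acid cycle with mitochondrial biogenesis (17 of 23, median 0.12) had 0 genes at 1.5-fold. Among chaperones Hsph1 read 7.53, 8.60, 9.17 and 8.76 (2.10-fold), and the median of 21 genes was 0.29. The small heat shock genes Hspb8 and Hspb1 stood at -0.41 and -0.29.

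Chromatin genes were higher in 29 of 33 cases for Polycomb and Trithorax and in 33 of 38 for heterochromatin and remodelling, with medians of 0.23 and 0.27. Phc1, a subunit of Polycomb complex PRC1, read 9.42, 10.46, 11.65 and 11.07 (2.05-fold). The paralogous histone methyltransferases of PRC2 went opposite ways: Ezh2 read 9.92, 10.61, 11.47 and 11.39 (1.61-fold higher), and Ezh1 read 10.02, 9.47, 9.64 and 9.66 (1.46-fold lower). Jarid2, which guides PRC2, was 1.58-fold higher, and Phf1, another PRC2 partner, 1.52-fold lower. Hells, a remodeller needed for DNA methylation, read 7.40, 8.42, 10.32 and 10.19 (2.03-fold), and the histone chaperone gene Chaf1a was 1.58-fold higher. In the SUMO pathway itself 15 of 20 genes were higher with a median of 0.12, led by the protease gene Senp3 (1.33-fold) and the gene of the SUMO-modified corepressor Trim28 (1.30-fold), and 0 reached 1.5-fold either way. Sumo3, the paralogue of Sumo2, read 8.57, 8.92, 8.67 and 8.94, but the median over its probe sets put the difference at -0.068.

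RNA regulators were led by a pair of epithelial splicing factors. Esrp2 read 6.68, 7.91, 8.16 and 8.63 (2.36-fold) and Esrp1 6.10, 7.34, 8.48 and 7.84 (at least 1.63-fold). The splicing factor gene Srsf3 was 1.75-fold higher, whereas Celf2, an RNA-binding splicing regulator, stood at -0.54. The median of the 27 measured genes was 0.11. Of 39 germline genes found on the array only 5 were measured, and the synaptonemal complex gene Syce2 was the only measured member at 1.5-fold counted from the floor (7.40, 8.19, 10.04 and 10.17). Tdrkh, of the piRNA pathway, read 6.83 against 6.09, at least 1.12-fold lower. Telomerase and shelterin genes had a median of 0.15, with Tinf2 1.56-fold higher and Tert at 7.41, 7.83, 8.67 and 8.26.

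In the opposite direction, cytokine and chemokine genes had the lowest median of the 55 pathway and family lists counted from the floor. With no floor their median was -0.22. The leucine-rich matrix, interferon and NF-kB lists described below then stood lower, at -0.33, -0.30 and -0.26. Of 41 listed cytokine and chemokine genes 20 were measured, 18 of these were lower and 10 at least 1.5-fold lower, with a median of -0.56. Il1rn, the natural antagonist of the interleukin 1 receptor, read 10.35, 8.72, 5.78 and 6.25, or 3.09-fold lower, the largest difference in this direction among all measured genes when counted from the floor. Prok2, a secreted chemoattractant, was at least 2.19-fold lower. The chemokine genes Cxcl12, Cxcl14, Ccl7 and Ccl9 stood at -0.93, -0.90, -0.79 and -0.62, and Cxcl12 read 10.29, 9.36, 8.93 and 8.46. Tnfrsf11b, the decoy receptor osteoprotegerin, read 11.21, 10.29, 7.34 and 7.53 (1.88-fold lower).

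Receptors of the interleukin 6 family belong to the same group, and Osmr and Lifr are neighbours among the measured genes of chromosome 15. Osmr, the oncostatin M receptor, read 10.97, 10.01, 8.51 and 8.03 (1.94-fold lower). Lifr, the receptor for leukaemia inhibitory factor, read 8.71, 8.0, 10.31 and 9.92 (1.64-fold lower), so it was lowest in the Sumo2-labelled culture and highest in the iPSC lines. Il13ra1 had the same order at its low end, at 8.68, 7.63, 8.14 and 8.41 (2.08-fold lower). The shared subunit gene Il6st lay at -0.17, and the ligand gene Lif at 0.50.

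Innate sensing and interferon genes were lower by smaller steps. Tril, an accessory protein of Toll-like receptors, read 8.93, 7.64, 5.25 and 5.66 (2.44-fold lower), and Ly96, the co-receptor for lipopolysaccharide, was 1.51-fold and the atypical inhibitor gene Nfkbiz 1.56-fold lower. In the NF-kB and pattern recognition list 16 of 20 genes were lower, with a median of -0.35 as read and -0.25 counted from the floor. The subunit gene Rela lay at -0.02 and the feedback inhibitor gene Nfkbia at 0.15. Of 36 interferon response genes 16 were measured and 13 of these were lower, with a median of -0.32. Ifi27 read 8.41, 7.46, 6.11 and 5.66 (1.94-fold lower) and Oas2, an activator of RNA decay, 7.83, 6.95, 6.64 and 7.14 (1.84-fold lower), whereas the RNA sensor gene Ddx58 stood at 0.36 and the antiviral gene Bst2 at 0.44. The interferon-stimulated response element was searched as GAAA, any pair of bases and GAAA on both strands. It was in 4 of 11 promoters of this list (36.4%) and in 3.34% of those of measured genes. Among genes at least 1.5-fold lower it was in 6.22%. Ifit3, an interferon-induced antiviral gene whose promoter holds a pair of matches that begin 156 and 122 bases before the start, read 7.02, 6.54, 6.46 and 6.18, at least 1.27-fold lower.
Ifit3, chr19:34583279-34583528, plus strand: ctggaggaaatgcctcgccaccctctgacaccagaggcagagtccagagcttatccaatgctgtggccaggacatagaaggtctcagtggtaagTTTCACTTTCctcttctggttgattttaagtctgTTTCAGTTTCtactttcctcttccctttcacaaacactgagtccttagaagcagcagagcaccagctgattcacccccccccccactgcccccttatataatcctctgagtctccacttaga

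Complement regulators went both ways. Serping1, the C1 inhibitor, read 10.18, 9.02, 7.90 and 9.09 (2.24-fold lower), and Cd55, which speeds the decay of convertases, was 1.64-fold lower. Cd59a, which blocks the membrane attack complex, read 8.75, 10.13, 7.70 and 8.38 (2.59-fold higher) and was higher in the Sumo2-labelled culture than on any other array. The anti-angiogenic serpin gene Serpinf1 was 1.90-fold lower. Of 22 measured complement, coagulation and serpin genes 17 were lower, with a median of -0.27.

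**Figure D3:**
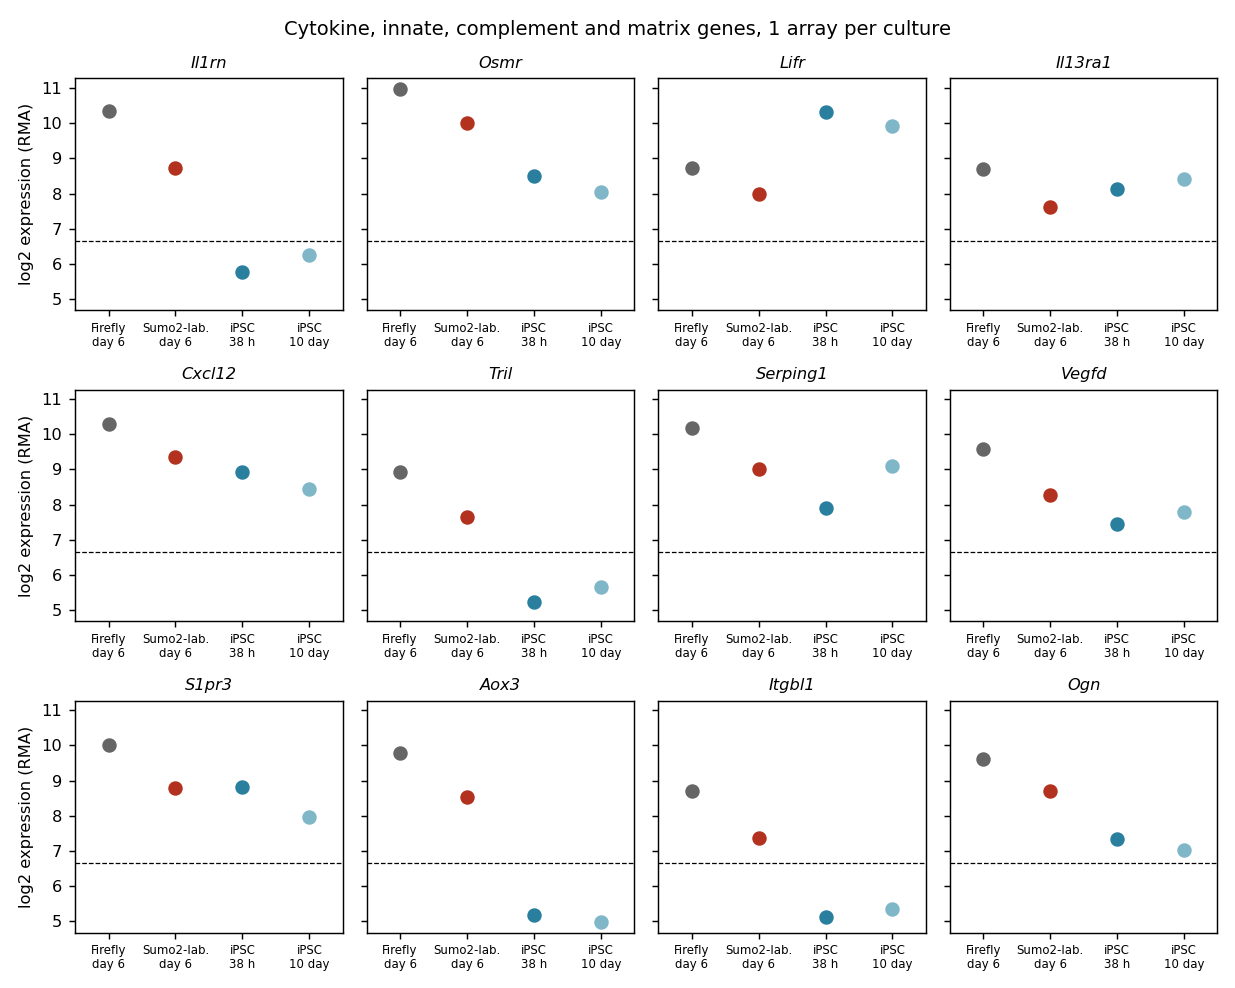
Log2 expression (vertical axis, RMA scale) of 12 cytokine, receptor, innate immune, complement, lipid mediator, oxidase and matrix genes; each point is 1 array and the dashed line is the measuring floor averaged over the 4 arrays. Each gene reads lower in the Sumo2-labelled than in the Firefly culture; Il1rn ends at 5.78 and 6.25 in the iPSC lines, whereas Lifr stands at 10.31 and 9.92 there.

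Small leucine-rich proteoglycans and elastic fibre genes were lower in 23 of 26 cases, 10 of them at least 1.5-fold, with a median of -0.42. This list and the fibroblast markers share Dcn, the decorin gene, which read 7.95, 7.07, 6.82 and 5.16. Itgbl1, a secreted integrin-like protein, read 8.72, 7.37, 5.12 and 5.34 (2.54-fold lower), and Ogn, which encodes osteoglycin, 9.62, 8.71, 7.33 and 7.03 (1.88-fold lower). Its neighbour Aspn among the measured genes of chromosome 13 was at least 1.41-fold lower. Ltbp4, which binds latent TGF-beta in the matrix, was the exception at 0.53. Matrix proteases and their inhibitors were lower in 17 of 22 cases; Mmp2, a gelatinase, read 11.00, 10.23, 9.92 and 9.23 (1.71-fold lower). In the lysosome and autophagy list 24 of 29 genes were lower with a median of -0.18, and only Ctsk, the collagen-cutting cathepsin K, reached 1.5-fold (7.71, 6.94, 5.73 and 5.84).

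Oxidases and detoxifying enzymes were lower in 19 of 28 cases, with a median of -0.23. The aldehyde oxidase genes Aox3 and Aox1 are neighbours among the measured genes of chromosome 1. Aox3 read 9.77, 8.54, 5.20 and 4.98 (2.35-fold lower) and Aox1 9.17, 8.40, 6.12 and 6.25 (1.71-fold lower). Akr1c18, a steroid-reducing enzyme, was 1.91-fold and the glutathione transferase gene Gstt1 1.55-fold lower. Gclc, which takes part in glutathione synthesis, stood at 0.47 and Txnrd1, a thioredoxin reductase gene, at 0.39. Cyp2s1, a cytochrome P450 of epithelia, read 8.21, 9.20, 10.25 and 11.25 (1.99-fold higher).

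Several signalling families divided between members. Of the frizzled receptors for Wnt ligands, Fzd2 read 8.64, 7.71, 7.05 and 6.65 (1.90-fold lower) and Fzd1 was 1.64-fold lower, while Fzd6 read 7.50, 8.17, 6.66 and 6.86 (1.59-fold higher) and Fzd3 was 1.55-fold higher. The secreted Wnt antagonist gene Sfrp1 was 1.63-fold lower, the target gene Axin2 lay at 0.23, and the list of 30 had a median of -0.05. In the VEGF axis the lymphatic growth factor gene Vegfd read 9.57, 8.27, 7.45 and 7.80 (2.46-fold lower). Receptors of that axis were higher: Nrp2 read 9.01, 10.11, 8.86 and 8.39 (2.15-fold) and Flt4, the receptor for VEGF-C and VEGF-D, was at least 1.55-fold higher. Nrp1 was at least 1.26-fold lower.

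Among axon guidance genes, with 16 of 32 higher and a median of 0.00, the transmembrane semaphorin gene Sema6a read 7.12, 8.33, 6.65 and 6.35 (2.31-fold higher) and Sema3e 7.06, 8.01, 7.11 and 6.27 (1.94-fold higher). Both read higher in the Sumo2-labelled culture than on the other 3 arrays. Slit3, a secreted repellent, was 1.61-fold lower and Slit2 1.43-fold. Of 23 measured laminin and integrin genes 7 were higher and 16 lower, with a median of -0.040. The epithelial laminin chain gene Lama5 read 7.58, 8.79, 10.47 and 9.69 (2.32-fold higher) with its receptor subunits Itga6 (1.79-fold) and Itga3 (1.64-fold). Other laminin chain and integrin genes stayed nearer to 0, with Lama3 at 0.06, Lamb3 at -0.04, Itgb4 at -0.05 and Itgb1 at -0.17. The mesenchymal chain genes Lama4 and Lama2 were 1.29-fold and 1.28-fold lower.

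**Figure D4:**
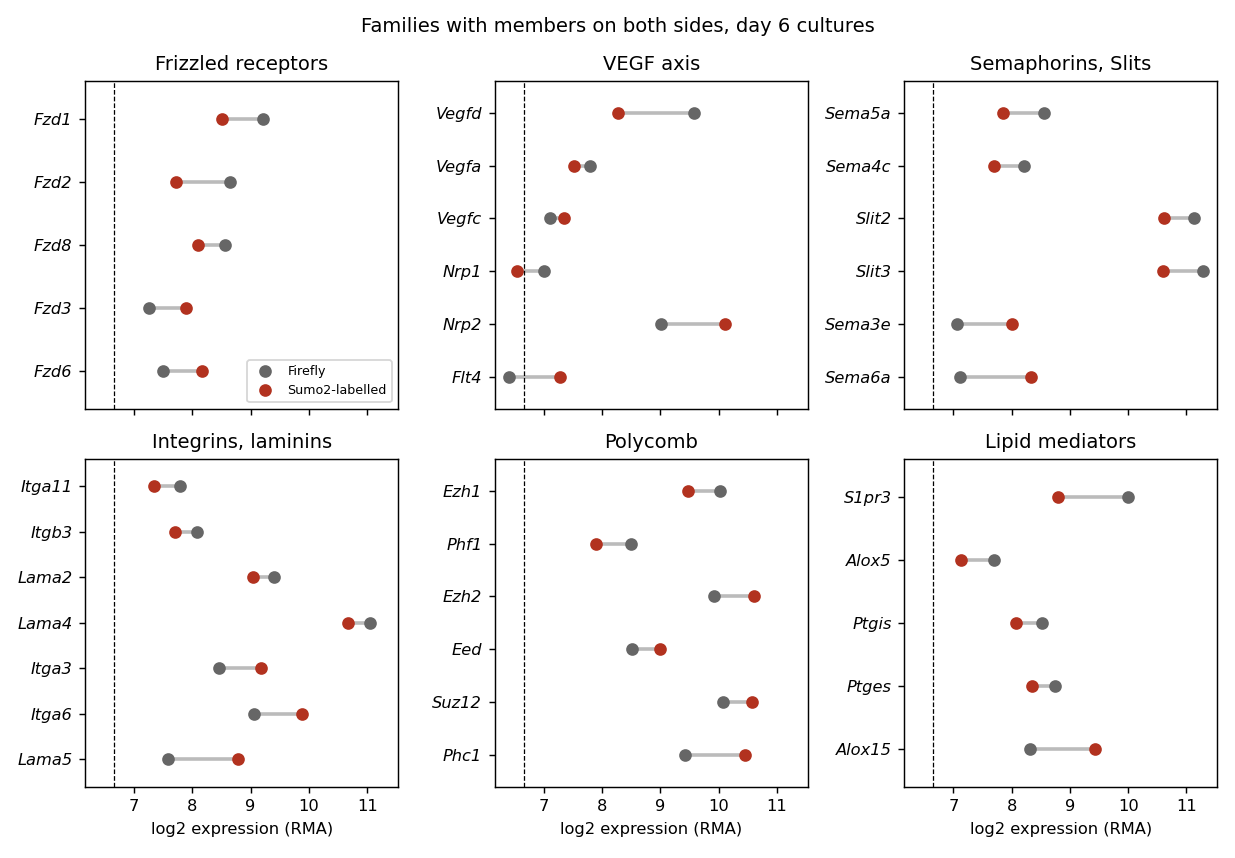
Log2 expression (horizontal axis, RMA scale) of members of 6 families in the Firefly culture (grey) and the Sumo2-labelled culture (red), 1 array each; the dashed line is the measuring floor averaged over both. Members of a family lie on both sides, as Vegfd (9.57 against 8.27) and Nrp2 (9.01 against 10.11) do.

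In the Nodal and activin list 9 genes were higher and 7 lower. The largest difference was that of Tdgf1, a Nodal co-receptor that is also a pluripotency marker, at least 4.84-fold higher. Nodal, a ligand of the TGF-beta family, read 7.13, 8.16, 9.34 and 9.36 (2.04-fold higher), and its receptor gene Acvr2b was 1.73-fold higher, but Lefty1, a feedback inhibitor, read 6.83 against 6.41 and the median of 16 genes was 0.06. Inhba, the activin A subunit, was 1.52-fold lower. Notch4 read 7.62, 8.77, 8.93 and 9.38 (2.22-fold higher) and the ligand gene Jag2 7.72, 8.71, 8.54 and 7.83 (1.99-fold higher), against 1.26-fold lower for Notch2. In that list of Notch, Hedgehog and Hippo genes 13 were higher and 20 lower, with a median of -0.072. Of 42 measured genes of FGF and other receptor tyrosine kinase signalling, 19 were higher and 23 lower, with a median of -0.022. The growth factor gene Fgf18 read 10.40, 9.57, 7.50 and 7.36 (1.78-fold lower), and Fgf7 was 1.63-fold lower. Etv4, a transcription factor downstream of FGF receptors, was 1.80-fold higher. Of 25 immediate early genes 21 were lower, but the median was only -0.13. Egr1 alone reached 1.5-fold, at 9.46, 8.80, 8.43 and 7.65 (1.58-fold lower).

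Among lipid mediators S1pr3, a receptor for sphingosine 1-phosphate, read 10.00, 8.79, 8.81 and 7.98 (2.32-fold lower). Alox15, a lipoxygenase, read 8.32, 9.43, 5.42 and 5.84 (2.16-fold higher), above all other arrays. Of the nuclear receptors, Nr5a2, which binds the Oct4 gene, read 7.25, 9.08, 9.95 and 9.72 (3.54-fold higher), and Rora, a receptor with a role in the circadian clock, was 1.69-fold lower. Hox genes, which carry body position in fibroblasts, were lower in 16 of 21 cases with a median of -0.22; Hoxb4 read 8.32, 7.61, 6.53 and 6.51 (1.63-fold lower), followed by Hoxa5 (1.57-fold). Car2, a carbonic anhydrase, read 6.42, 8.77, 7.53 and 8.82 and was at least 4.38-fold higher, while Car11 and Car5b stood at -0.40 and -0.34.

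The remaining lists held few large differences. Of 11 measured antigen presentation genes 8 were lower, with Tapbp, a loading factor of class I molecules, 1.52-fold lower (10.16, 9.55, 9.34 and 9.49). In the list of endoplasmic reticulum folding and transport genes only Xbp1, a transcription factor of the unfolded protein response, reached 1.5-fold (10.72, 10.12, 10.50 and 10.77, lower), and the split of 13 higher and 10 lower turned to 9 and 14 after cyclic loess. Cytoskeleton genes were lower in 24 of 34 cases, with a median of -0.14; Myl9, a myosin light chain of smooth muscle, read 11.48, 10.87, 9.90 and 9.48 (1.53-fold lower). Of 30 BMP pathway genes 18 were lower, and Sostdc1, a secreted BMP antagonist, read 11.80, 11.11, 5.84 and 5.79 (1.61-fold lower). Among G protein receptors the angiotensin receptor gene Agtr1a was 1.56-fold lower, at 9.08, 8.44, 6.11 and 5.39. Bcl2, which blocks cell death, read 9.76, 10.48, 7.35 and 6.95 (1.65-fold higher), whereas Bcl2l11, a death-promoting relative, stood at -0.47. Of 23 measured Bcl2 family and caspase genes 12 were higher and 11 lower, with a median of 0.05. Only Bcl2 reached 1.5-fold. Of 6 measured Bex and Tceal genes Bex1 read 7.22, 9.53, 11.29 and 11.90 (4.97-fold higher), Bex4 was at least 2.06-fold higher and Tceal1 1.59-fold lower. A dim second probe set of Bex4 differed by 0.19 only. Tfrc, the receptor for iron-loaded transferrin, read 7.49, 8.18, 10.61 and 10.72 (1.62-fold higher), and the water channel gene Aqp3, below the floor in the Firefly culture, stood at 0.58 counted from it.

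Lists of markers of other cell types held few measured genes. All 7 adipocyte markers found lay below it on both day 6 arrays. Of the blood, endothelial, neural, muscle, keratinocyte and endoderm lists, 6 of 13, 3 of 10, 5 of 12, 8 of 10, 3 of 10 and 6 of 12 genes were measured, with 0 genes 1.5-fold higher and, among these lists, only Lyz2 of the blood list 1.5-fold lower as read (7.15 against 6.09, at least 1.39-fold). Of 10 trophoblast markers 5 were measured and all were higher. Of these, Tfap2c, Eomes and Ascl2 passed the floor only on the Sumo2-labelled array, so they could only read higher. Gata3 stood at 0.05, or -0.13 by the median over its probe sets. Cdx2 and Elf5 lay below the floor on both day 6 arrays. Tfap2c, also a factor of early germ cells, was at least 2.62-fold higher. Krt8, a keratin of simple epithelia that is in the epithelial list as well, was 1.88-fold higher. Eomes, a defining gene of trophoblast stem cells, read 6.45 and 6.76, at the floor. Some measured markers stood well above the floor in both cultures: the endothelial gene Tek read 10.50 and 10.50, the neural gene Nes 9.06 and 9.42, and Dab2 of the endoderm list 11.07 and 10.68. The part of these cells in the results above was not tested.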

How the data were processed

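Total RNA of 4 cultures, DNase-treated and isolated with a column kit per the labels, was labelled with biotin and hybridised to 1 Affymetrix array each. The submitters' processing notes name RMA and Affymetrix Expression Console, and the values the authors deposited are taken as log2 expression, the scale of RMA, since no header states the base. Versions, settings and the design's genome build are not given in the sources used here. Because RMA equalises the distributions of arrays, total RNA per cell is not measured, and differences of dim probe sets are drawn towards 0. Arrays carry no counting depth, so precision is limited by their number.

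The platform annotation gave 1 symbol to 23521 of 41345 probe sets and several to 1814, and 16010 are unnamed here. Differences were Sumo2-labelled minus Firefly, with 2-fold and 1.5-fold as size rules and no test. The members and gene lists were chosen with earlier results of these data known. The naming rule took the 25 highest and 25 lowest genes counted from the floor, and in each list members at least 2-fold apart or up to 5 each way furthest apart, plus members near 0; predicted, clone-named and small RNA genes were left out. The text describes part of the genes the rule picks, and leaves out most of the usual pluripotency, epithelial and fibroblast markers. Other genes were named after their values were seen. A list needed 3 measured genes for a median. Chromosomes and promoter windows came from RefSeq tables of GRCm38.p6, with promoters for 9269 of the 11740 measured genes. Alternatives covered scaling (quantile; cyclic loess in limma 3.58.1, R 4.3.3), the floor, the probe set and the fold. Counting was tested on simulated data, and Python 3.11.15 with pandas 2.3.3 was used.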

Additional observations from a re-analysis of the deposited data

How the results depend on the processing

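With 1 array a side there was no replicate to leave out, depth has no measure, and levels near the floor are the least certain. No paired analysis was possible because the labels carry no replicate numbers. Of 446 list medians recomputed under the alternatives, 415 moved by at most 0.1 on the log2 scale, and 48 of 65 lists kept within that limit under every alternative run. Scaling again by quantiles or by cyclic loess moved none of the 65 medians by more than 0.1. RMA had already equalised the distributions of the arrays, so these scalings had little left to change.

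The count of genes 2-fold higher was 59 with the upper quartile as the floor and 480 at 1.5-fold, against 111; the count 2-fold lower was 17 and 330, against 27. The cause of the changes below was not tested. Carbonic anhydrases and metal and nucleoside transport had a median of 0.12 as reported, -0.030 both with the floor required on both arrays and with the upper quartile as the floor, and -0.019 with the median over a gene's probe sets. Medians nearer to 0 (endoplasmic reticulum, cholesterol, axon guidance, ion channels, blood and muscle markers) also changed sign under some alternatives. The median over probe sets put glycolysis at 0.028. With the upper quartile as the floor, the median was 0.47 for homologous recombination, -0.071 for oxidases and detoxification, -0.15 for antigen presentation, -0.71 for cytokines, -0.44 for G protein receptors, -0.38 for Hox genes, 0.28 for Bex and Tceal genes, 0.77 for Ly6 genes, -0.34 for endoderm markers, 1.95 for pluripotency markers and 1.73 for epithelial markers. With no floor it was -0.14 for antigen presentation, -0.22 for cytokines, -0.14 for matrix proteases, 0.058 for Bex and Tceal genes, 0.049 for muscle markers, 0.15 for trophoblast, -0.012 for endoderm, 0.47 for pluripotency and 0.91 for epithelial markers. Counted from the floor it was -0.15 for antigen presentation, 0.10 for neural markers, 0.12 for trophoblast, 0.69 for pluripotency and 1.06 for epithelial markers. Required on both arrays, it was 0.037 for Bex and Tceal genes and 0.69 for pluripotency markers. Only 1082 of the 22180 genes have more than 1 probe set, and no other gene can move under the median over probe sets. Of 221 genes followed singly, 0 moved by more than 0.1 under either scaling and 12 under the median over probe sets. Among these were Dut (0.66), Bcl2 (0.44), Cyyr1 (0.91), Bex4 (0.78), Celf2 (-0.32), Axin2 (0.063) and Sumo3, which changed sign (-0.068).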

Other observations

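Of the 111 genes at least 2-fold higher and the 27 at least 2-fold lower, 98 and 27 lie outside the usual pluripotency, epithelial and fibroblast markers, and many belong to none of the pathway lists; the following were chosen after their values were seen, with values in the order Firefly, Sumo2-labelled, 38 h and 10 day. Some were higher in the Sumo2-labelled culture than on all other arrays. Prob1 read 7.15, 9.57, 6.51 and 6.68 (5.34-fold higher), Ly6g6c, a member of the Ly6 family of surface proteins, 8.06, 10.32, 7.53 and 8.38 (4.79-fold), and Fndc4 8.32, 9.53, 7.62 and 7.29 (2.31-fold). Cyyr1 read 8.42, 10.31, 7.83 and 7.98 (3.70-fold), but its dim second probe set differed by -0.07. Of 8 genes at least 2-fold higher that have a further probe set, 7 had it on the same side, by 0.085 to 0.83, with none of them at 2-fold.

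Several of the higher genes encode surface or membrane proteins, which were not counted against a background. The adhesion molecules Mcam, Mpzl2, Bcam and Cadm1, all of the immunoglobulin superfamily, were 2.94-fold, 2.85-fold, 2.82-fold and 2.05-fold higher. Spint1 and Spint2, inhibitors of membrane-bound serine proteases such as the product of St14, were 2.40-fold and 2.20-fold higher, and St14 itself 3.31-fold. The transporter genes Slc35f2, Slc52a3 (riboflavin) and Abcc4 were 4.11-fold, 2.70-fold and 2.13-fold higher. Apela, a peptide hormone of early embryos, read 8.59, 10.06, 10.53 and 8.52 (2.77-fold). Among imprinted genes 11 of 22 were higher and 11 lower; Peg3 read 7.83, 10.03, 10.93 and 10.50 (4.60-fold higher), Mest was 1.44-fold higher and Dcn the lowest at -0.88. Zdbf2, which is not in that list, was 2.20-fold higher. On the lower side, Crym, a thyroid hormone-binding crystallin, read 10.97, 9.89, 6.99 and 6.78 (2.11-fold lower), the scavenger receptor gene Colec12 was 2.07-fold and the matrix gene Tgfbi 2.05-fold lower.

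Grouping genes by symbol stem gave 128 families of at least 10 measured genes, with medians from -0.34 for the 29 collagen (Col) genes to 0.46 for the 16 nucleoporin (Nup) genes. Interleukin and interleukin receptor (Il) genes were lower in 18 of 19 cases, and Srsf splicing factors higher in 10 of 10. Over chromosomes with at least 100 measured genes, the share at least 1.5-fold higher ran from 2.59% on chromosome 11 to 6.13% on chromosome 12. Neighbouring genes past 1.5-fold in 1 direction formed 24 runs higher and 17 lower, the longest of 3 genes, among them Tinf2, Tgm1 and Rabggta on chromosome 14. Neighbours were taken among measured genes only, so unmeasured genes between them were passed over. The runs were not counted against a background. Of 4422 measured probe sets unnamed here, 90 were at least 2-fold higher and 87 lower, against 111 and 27 of 11740 named genes. Unnamed probe sets thus passed 2-fold more often in both directions, above all lower, and with a more even split, which was not tested. The units differ, because each named gene stands by its brightest probe set while unnamed probe sets were counted singly. Their levels were not matched.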
